A study of Mus musculus with 25 samples.

Results

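The comparison set the livers of suckling mice, 7 and 14 days after birth (Day7 and Day14), against those of newborn mice, on the day of birth and 3 days later (Day0 and Day3). RNA levels were measured on Affymetrix whole-genome arrays in C57/B6 mice without any treatment, and each stage was 1 RNA pool from 3 livers. Day7 and Day14 had 1 array each, and Day0 and Day3 had 2 technical repeat arrays each, so 6 of the 25 arrays and 4 of the 14 stages of the series entered the comparison. They were chosen by the stage in their titles. All 18194 genes with a probe set of 1 gene symbol were followed, each through its brightest probe set, and levels are given as the log2 of the deposited intensity. The study's title describes a multi-stage survey of gene expression in the developing mouse liver.

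The liver makes blood in the fetus and hands this task to the bone marrow around birth. In the weeks of suckling it lives on a milk diet rich in fat and poor in carbohydrate, its hepatocytes stop dividing at the fetal pace, and the enzymes of detoxification, amino acid breakdown and bile acid handling are set up. Growth hormone begins to act on the liver in the same period, chiefly by switching on the hormone IGF-1.

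Levels of hepatocyte genes identified the tissue on all 6 arrays. Alb, serum albumin, read 14.44 at Day7 and 14.49 at Day14, against 14.32 and 13.77 at Day0 and 14.32 and 13.79 at Day3. Ttr, the thyroxine carrier, read 14.23 and 14.11, against 13.04 to 13.90 on the 4 newborn arrays. Apoa1 and Apob, proteins of plasma lipoproteins, read 14.11 and 14.13, and 12.04 and 12.07, against 13.53 to 14.11 and 11.72 to 12.98 on the newborn arrays. The female-specific RNA Xist lay between 9.96 and 10.81 on all 6 arrays, and the Y-linked Eif2s3y read 5.19 at Day7 and 4.25 at Day14, against at most 4.19 on the newborn arrays. Some genes of other organs stood higher on the late arrays than on the newborn ones. The summed intensity of 21 kidney genes, a list drawn up after values were seen, was 3886 at Day7 and 1324 at Day14, against 1056 to 1201 on the newborn arrays. That of 11 exocrine pancreas genes was 1498 at Day7 and 2565 at Day14, against 1295 and 1178 at Day0 and 810.1 and 845.5 at Day3. The sum over 15 skeletal muscle genes was 699.7 at Day7 and 733.8 at Day14, against 600.4 to 645.1. In 10 of the 15 both late arrays lay above all 4 newborn arrays, against 21.9% of all genes. None of the 15 was called higher or lower in the tests of each late pool described below. The mean intensity of an array was 205.4 at Day7 and 166.1 at Day14, against 154.9 to 198.6 on the newborn arrays, where array 1 of each stage was the brighter. The sampling of each stage was 1 pool, so no p-value below measures the spread between animals. The first test below takes its spread from the differences of Day0 from Day3 and of Day7 from Day14. The later ones take it from technical repeat arrays.

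With the pool as the unit, 2 late against 2 newborn pools, 0 of 18194 genes passed a limma test (0% higher and 0% lower) for which a call needed an adjusted p under 0.05 together with a shift of 1 log2 unit or more, although 3375 had an unadjusted p under 0.05 and the lowest adjusted p was 0.159. In simulated data this design found 0% of 4-fold changes. Setting the arrays to equal levels of housekeeping genes gave 432 higher and 448 lower genes in the same test. The prior degrees of freedom of the limma fit were then 12.61, against 1.635 as deposited. Quantile normalisation and centring on medians gave 0 higher and 0 lower genes, with priors of 1.752 and 1.684. The same contrast between stages gave 493 higher (2.71%) and 695 lower genes (3.82%) when the spread was taken from repeat arrays. Each late pool was therefore also set against the mean of the newborn stages in a limma fit of all 25 arrays with a mean for each stage. There the spread comes from the 11 stages with repeats and the 2 lone arrays are assumed to vary like them. At the same thresholds 819 genes (4.5%) were higher and 565 (3.11%) lower at Day7, and 395 (2.17%) higher and 1220 (6.71%) lower at Day14. The share of higher genes among the Day14 calls was 24.5%, and it was 37.6% after quantile normalisation and 44.9% at equal housekeeping levels. Between the late pools 211 genes (1.16%) were higher and 831 (4.57%) lower at Day14 than at Day7. Over all genes the median change was 0.03 at Day7 and at Day14, and it was 0.24 at Day14 at equal housekeeping levels and 0.12 with each array centred on its median.

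**Figure D1:**
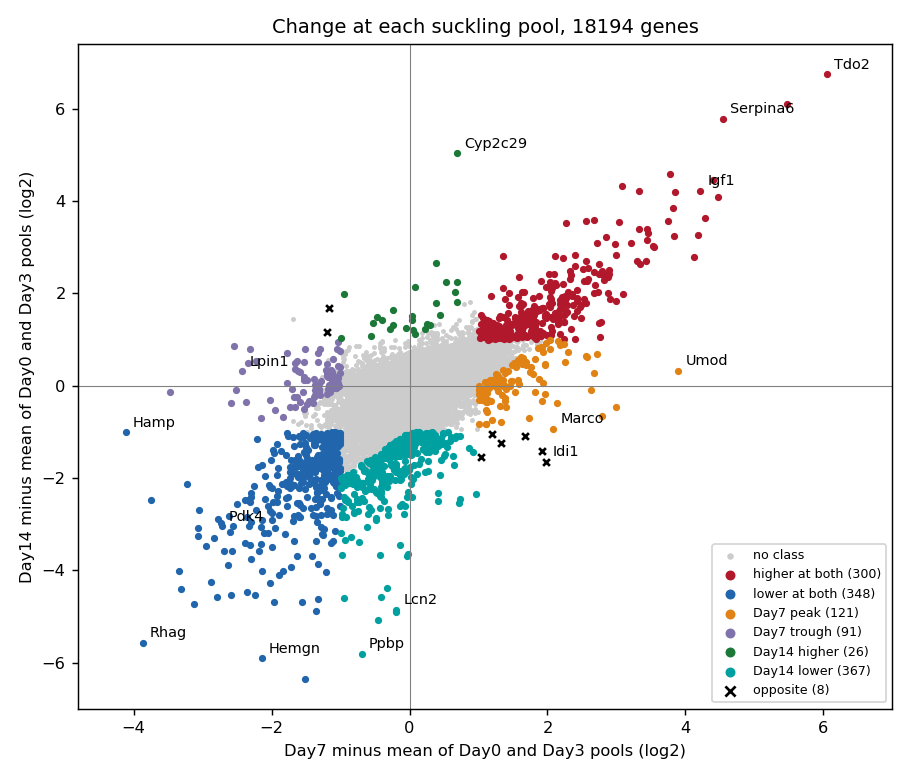
Change of each of 18194 genes at Day14 (vertical axis) against its change at Day7 (horizontal axis), both as log2 differences from the mean of the Day0 and Day3 pools. Colours mark genes by the calls at each pool, from 300 higher at both to 8 called in opposite directions. Both axes share the same newborn arrays, so the slant of the cloud is no result.

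Genes fell into classes by these calls. Higher at both late pools were 300 genes (1.65%), and lower at both were 348 (1.91%). Another 121 (0.665%) peaked at Day7: they were called higher at Day7, called lower at Day14 than at Day7, and not called higher at Day14. The mirror image, a trough at Day7, was seen in 91 (0.5%). A change at Day14 alone, called against the newborn mean and against Day7 but not called at Day7, was seen in 26 higher (0.143%) and 367 lower genes (2.02%), and 8 (0.044%) were called in opposite directions. The late arrays lay above all 4 newborn arrays in 286 of the 300 and below all 4 in 342 of the 348, against 21.9% and 15.8% of all genes that were separated in this way. The classes were called on differences from these same newborn arrays, so this separation largely follows from the choice and is no separate support. Since the newborn level is the mean of Day0 and Day3, which differ themselves (330 genes, 1.81%, higher and 200, 1.1%, lower at Day3), each stage was also used alone. Of the 300 genes 161 were in the same class against Day0 alone and against Day3 alone, as were 228 of the 348, 47 of the 121 peaks, 63 of the 91 troughs, 16 of the 26 and 286 of the 367.

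**Figure D2:**
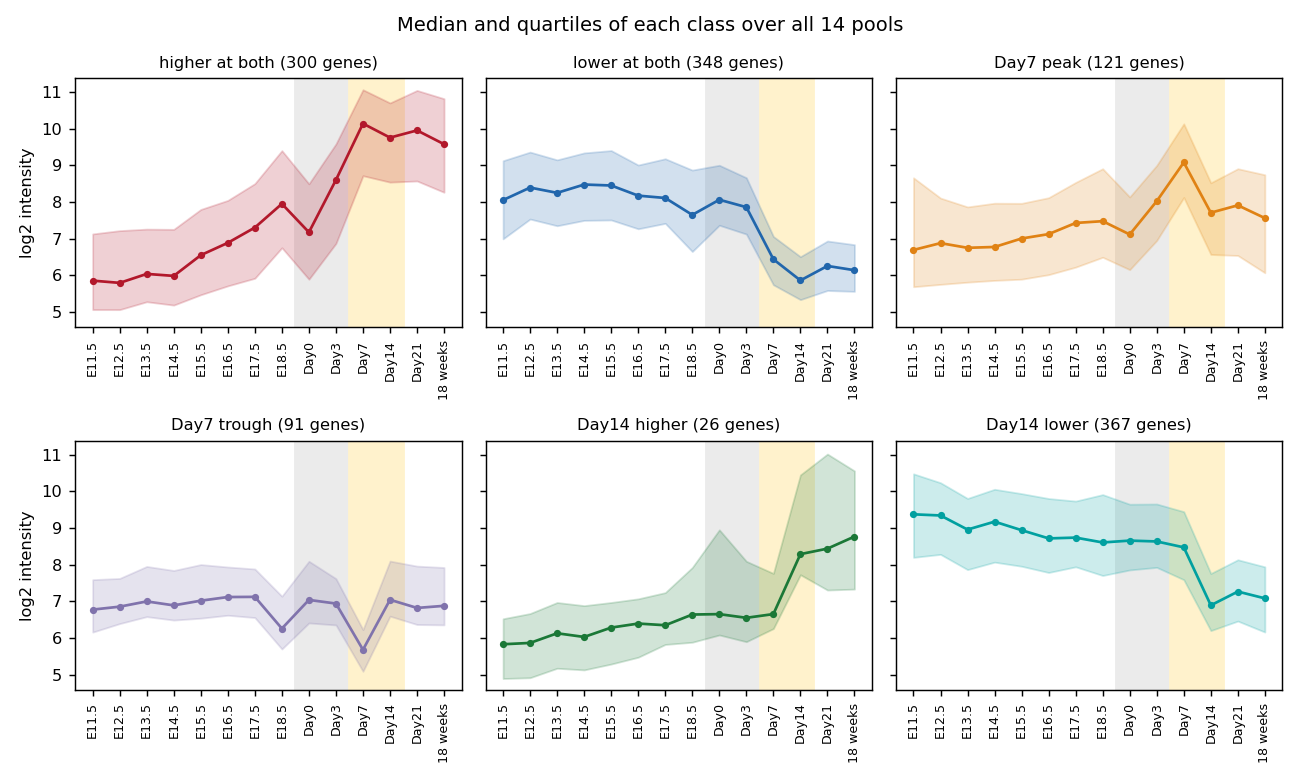
Median (line) and quartiles (band) of log2 intensity for the genes of each class over all 14 pools in stage order, with the newborn stages on grey and Day7 and Day14 on yellow. The median of the genes higher at both read 7.95 at E18.5, 7.18 at Day0, 8.60 at Day3, 10.14 at Day7 and 9.76 at Day14, and that of the Day7 troughs was low at E18.5 (6.26) and Day7 (5.68).

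Hepatocyte enzymes, carriers and secreted proteins made up the largest rises shared by both late pools. Tdo2, which opens the breakdown of tryptophan, read 11.72 at Day7 and 12.41 at Day14, against 6.49 and 5.68 at Day0 and 5.38 and 5.11 at Day3. The late arrays were far above all newborn ones, by 6.05 ± 0.26 log2 units at Day7 (SE, limma adjusted p = 4.314e-10) and 6.75 at Day14, or 66.3-fold and 107.5-fold. Inmt, a methyltransferase of small amines, read 10.91 and 11.55, against 4.84 and 4.66 at Day0 and 6.24 and 6.01 at Day3, a rise of 5.47 ± 0.19 and 6.11. Igf1, the hormone that carries much of the growth hormone signal, read 12.04 and 12.05, against 6.41 and 6.29 at Day0 and 9.49 and 9.10 at Day3. Igf1 thus differed by 4.22 ± 0.18 at both late pools (18.6-fold and 18.7-fold), and part of its climb lay before Day3. The remaining genes of the 8 largest rises were Ugt2b36 (4.40 at Day7 and 4.46 at Day14), a glucuronosyltransferase, Akr1c20 (4.46 and 4.09), an aldo-keto reductase, Cyp2c50 (3.77 and 4.59), a cytochrome P450, the sulfotransferase Sult2a8 (3.84 and 4.20) and Serpina6. For all 8, both late arrays lay above the 4 newborn ones because the choice of these genes required it.

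Serpina6, the carrier of corticosteroids in plasma, stood higher before birth than at Day0 and Day3. It read 10.82 at Day7 and 12.06 at Day14, against 6.54 and 6.46 at Day0 and 6.29 and 5.82 at Day3, and had stood at 11.60 at E17.5 and 9.88 at E18.5. Tdo2 read 4.04 at E17.5 and 9.23 at E18.5 before its low newborn level. All of the 8 largest rises stood lower at Day0 than on the single E18.5 array. Igf1, for instance, read 9.22 at E18.5 and 6.35 at Day0, and Ugt2b36 9.41 and 6.12. Of the 300 genes, Day3 was called above Day0 in 143 and below it in 1, and in 156 that step was not called.

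**Figure D3:**
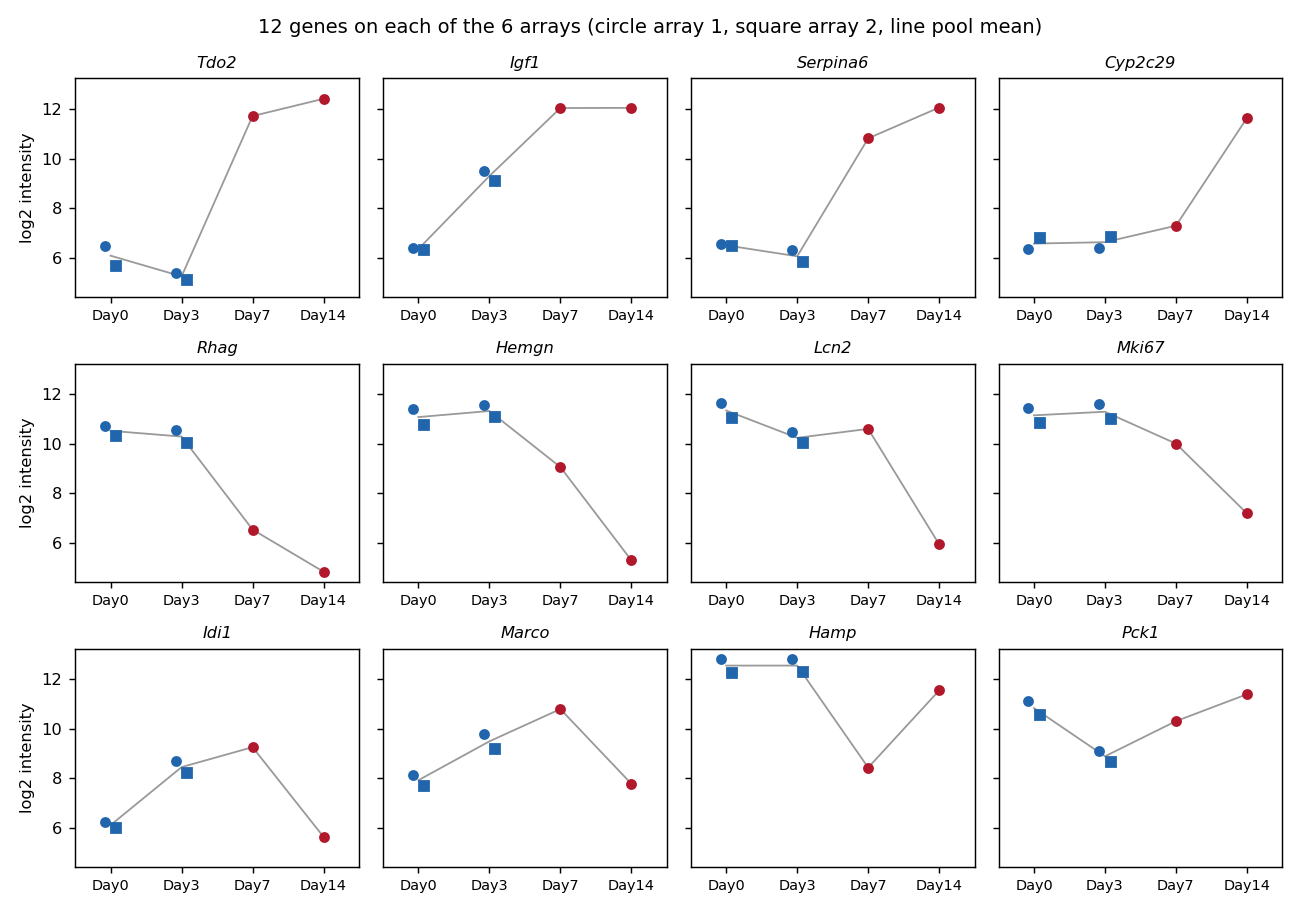
Log2 intensity of 12 genes on each of the 6 arrays, with circles for array 1 and squares for array 2 of a stage, newborn arrays in blue, Day7 and Day14 in red, and a grey line through the pool means. Tdo2 and Serpina6 step up between Day3 and Day7, Cyp2c29 mainly at Day14, and Lcn2 and Mki67 drop mainly at Day14. Idi1 and Marco peak at Day7, and Hamp is lowest at Day7.

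Many detoxifying enzymes were among the genes that rose. Of 42 measured genes of cytochrome P450 and other first-phase enzymes 15 were higher at both late pools, 3 at Day14 alone, 1 had a trough at Day7, 1 was lower at Day14 alone and 22 were in no class. The median change of the 42 was 0.67 at Day7 and 0.92 at Day14. Cyp1a2, which handles caffeine and aromatic amines, read 10.83 and 10.18, against 5.13 and 5.15 at Day0 and 8.14 and 7.78 at Day3 (4.28 ± 0.12 and 3.63). Ces1g, a carboxylesterase, gained 4.19 and 3.27. Conjugating enzymes, which couple sugars, sulfate or glutathione to such products, were higher at both in 13 of 31 and at Day14 alone in 2, with 1 peak at Day7 and 15 in no class. Their median change was 0.93 at Day7 and 1.20 at Day14. The glucuronosyltransferases Ugt2b1 (3.54 and 3.01) and Ugt2a3 (2.72 and 3.08) rose beside Ugt2b36, and near-identical members of these families can share probes.

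Part of the growth hormone axis and of complement was higher as well. In the list of the growth hormone and IGF axis 5 of 15 were higher at both pools, 1 peaked at Day7 and 9 were in no class. Those higher included the receptor Ghr (2.74 and 2.42) and Igfals (2.39 and 1.502), which holds IGF-1 in the circulation. Igfals was not in this class against Day3 alone. Of 33 complement and clotting genes 10 were higher at both, 1 peaked at Day7 and 22 were in no class, with a median change of 1.13 at Day7 and 0.65 at Day14. C4bp, an inhibitor of complement, read 11.29 and 11.32, against 6.47 and 6.67 at Day0 and 8.64 and 8.13 at Day3. C9, which closes the membrane attack pore, read 9.59 and 9.66, against 6.00 to 6.37 on the 4 newborn arrays, with no climb between Day0 and Day3. C8g (2.23 and 2.19), another part of that complex, and the lectin Mbl2 (2.06 and 1.78) rose as well, Mbl2 not in this class against Day3 alone. The plasma proteins and apolipoproteins as a list gave 3 genes of 32 higher at both, namely Serpina6, Apoc3 (1.58 and 2.35), which slows the clearance of triglyceride, and Mup3 (1.12 and 1.43) of the major urinary proteins.

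Amino acid and nitrogen handling split between the pools. Of 25 genes of amino acid breakdown 8 were higher at both and 3 at Day14 alone, including the kynurenine pathway enzymes Kynu (2.25 and 1.93) and Haao (1.79 and 1.44) downstream of Tdo2 and Hibch (1.81 and 1.54) of valine breakdown. Haao was not in the class against Day3 alone. In the urea cycle list 2 of 13 were higher at both and 3 at Day14 alone. Otc, which makes citrulline, read 11.63 and 11.51, against 7.18 and 6.56 at Day0 and 10.23 and 9.71 at Day3 (3.21 ± 0.29 and 3.09). Nags, which makes the activator of the cycle, gained 1.08 and 1.12 and was in no class against Day0 alone. Cps1, the first enzyme of the cycle, read 12.72 and 13.29, against 13.44 and 12.89 at Day0 and 11.94 and 11.52 at Day3, and was not called (limma adjusted p = 0.422 at Day7 and 0.0135 at Day14, with a change of 0.84).

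Bile acid, glucose and fat genes were mixed in their calls. Bile acid synthesis and transport had 6 of 26 genes higher at both, 1 at Day14 alone and 1 peak at Day7. They included Akr1d1 (2.67 and 2.46), a reductase of bile acid synthesis, Slc27a5 (1.65 and 2.02), which activates bile acids for conjugation, and Abcg5 (1.36 and 2.80), which exports sterols into bile. Cyp7a1, the rate-limiting enzyme, read 9.08 and 9.55, against 9.30 and 8.93 at Day0 and 7.63 and 7.68 at Day3. The late arrays overlapped the Day0 arrays and Cyp7a1 was in no class. In the gluconeogenesis and glucose release list 3 of 16 were higher at both, Ppp1r3c (2.90 and 1.87), which targets a phosphatase to glycogen, Gckr (2.24 and 1.54), the glucokinase regulator, and Khk (1.83 and 1.66), the fructose kinase. Ppp1r3c was a Day7 peak and Gckr in no class against Day3 alone.

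Among 26 genes of fatty acid oxidation and ketone making 2 were higher at both, 3 lower at both and 1 peaked at Day7. Acaa1b (2.04 and 1.92), a thiolase of peroxisomes, rose. Bdh1, which makes the ketone body 3-hydroxybutyrate, read 12.42 and 11.65, against 8.37 and 7.95 at Day0 and 11.93 and 11.53 at Day3, so its gain of 2.47 and 1.71 lay before Day3 and was -0.08 at Day14 against Day3 alone. Pdk4, which shuts off pyruvate oxidation in fasting, read 5.93 and 5.61, against 10.47 and 10.12 at Day0 and 6.98 and 7.05 at Day3 (-2.72 ± 0.15 and -3.05). Acot1, a fasting-induced thioesterase, read 6.49 and 5.98, against 10.004 and 9.33 at Day0 and 6.33 and 6.12 at Day3, and its Day7 array lay above both Day3 arrays. The falls of Pdk4 and Acot1 were thus mostly or wholly from the day of birth to Day3. Fads2 (2.78 and 1.38), a desaturase that makes polyunsaturated fatty acids, was 1 of 23 fat synthesis genes higher at both, beside 2 lower at both, 1 peak, 1 trough and 3 lower at Day14 alone, and it was a Day7 peak against Day3 alone.

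Regulators and signals were fewer. Of 30 liver transcription factors and nuclear receptors, a list that also held Dio1, 3 were higher at both. Dio1, the deiodinase that activates thyroid hormone, read 8.39 and 9.26, against 4.34 and 4.59 at Day0 and 5.78 and 5.51 at Day3 (3.33 ± 0.27 and 4.21). The clock-controlled factor Dbp gained 1.71 and 1.38 and was the only 1 of 17 clock genes in a class, and the oestrogen receptor Esr1 gained 1.21 and 1.37. Of 27 acute phase, hepcidin and iron genes 3 were higher at both, 2 lower at both and 20 in no class. Besides these, 1 peaked at Day7 and 1 was lower at Day14 alone. The median change of the 27 was 0.41 at Day7 and 0.09 at Day14. Those higher at both included Saa1 (2.99 and 1.83) and Saa4 (2.09 and 2.43) of the serum amyloid family. In the list of zonation, the division of labour along the lobule, 4 of 20 were higher at both and 3 at Day14 alone. Lect2 (3.44 and 3.16), a secreted hepatocyte protein, and Cyp2f2 (2.39 and 2.60), of the periportal zone, belonged to the first group, and Cyp2f2 and Saa4 were in no class against Day3 alone. Fabp2, the intestinal fatty acid binding protein, read 10.99 and 9.67, against 5.31 and 5.11 at Day0 and 8.81 and 8.25 at Day3. Iigp1 (2.58 and 2.27), an interferon-induced GTPase, and Egr1 (1.65 and 1.28), an immediate early factor, reached most of their level by Day3. Both were in no class against Day3 alone. Of 19 immediate early genes Egr1 alone was higher at both, 2 were lower at both and 16 were in no class. Their median change was -0.42 at Day7 and -0.50 at Day14. Of 29 interferon and MHC genes 1 was higher at both, 1 lower at both, 1 a Day7 peak and 26 in no class.

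**Figure D4:**
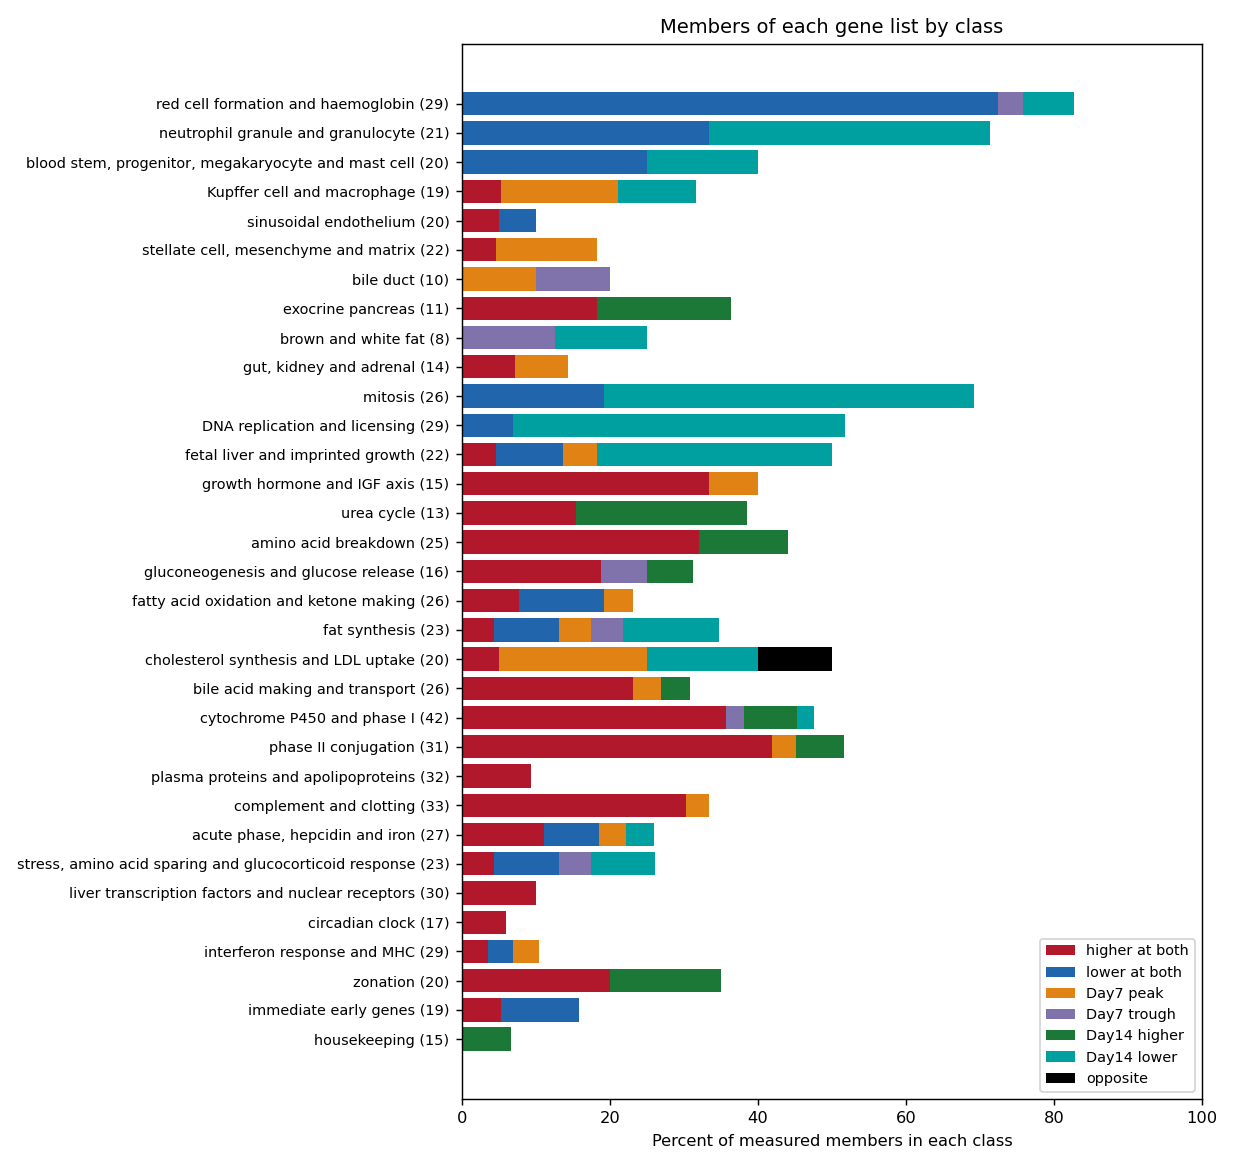
Percent of the measured members of each gene list in each class, with the number measured in brackets; lists with no member in any class are not drawn. Blue and teal bars (lower at both, lower at Day14 alone) lead in the blood and cell division lists, red (higher at both) in the enzyme lists, and orange and black (Day7 peak, opposite) in cholesterol synthesis.

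Most red cell genes fell. Of 29 measured red cell genes 21 were lower at both late pools, 2 at Day14 alone and 1 had a trough at Day7, none was in a class of higher genes, and the median change was -1.64 at Day7 and -2.65 at Day14. The late arrays lay below all newborn arrays in 28 of the 29, against 15.8% of all genes. Rhag, the ammonium channel of the red cell membrane, read 6.54 at Day7 and 4.83 at Day14, against 10.73 and 10.31 at Day0 and 10.55 and 10.03 at Day3 (-3.87 ± 0.25 and -5.57, 14.6-fold and 47.5-fold lower). Hemgn, a nuclear protein of erythroid precursors, read 9.06 and 5.30, against 10.76 to 11.57 on the newborn arrays, and Slc4a1, the band 3 anion exchanger, 10.34 and 5.51, against 11.56 to 12.14. Hemgn and Slc4a1 lost more between Day7 and Day14 (-3.76 and -4.83) than before, and Rhag the reverse (-1.70). Epb42 (-3.32 and -4.41) of the membrane skeleton and the blood group protein Rhd (-2.59 and -4.53) fell too. In whole-liver RNA, fewer cells of a type and less RNA in each cell cannot be told apart.

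The other largest falls were those of Olfm4 (-3.13 and -4.73), a secreted protein of granulocyte precursors and gut stem cells, Trak2 (-3.34 and -4.02), an adaptor of organelle transport, Isg20 (-2.79 and -4.57), an RNA exonuclease, and Cdr2 (-2.88 and -4.26). Olfm4 read 10.60 and 10.16 at Day0 and 8.81 and 8.17 at Day3, so it was already declining among the newborn pools. Stem and progenitor genes were lower at both in 5 of 20, among them Myb (-2.56 and -3.04) and Lmo2 (-1.35 and -2.94), factors of early blood cells, and lower at Day14 alone in 3. None of 15 B lymphocyte and none of 14 T and NK lymphocyte genes was in any class.

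Many granulocyte genes were called lower, part of them at both pools and part at Day14 alone. Of 21 measured 7 were lower at both pools and 8 at Day14 alone, with a median change of -0.32 at Day7 and -2.43 at Day14. Mpo, myeloperoxidase of the primary granules, read 8.70 at Day7 and 7.42 at Day14, against 11.49 and 10.997 at Day0 and 10.67 and 10.28 at Day3 (-2.16 and -3.44). The primary granule proteases Elane (-1.79 and -2.43), Prtn3 (-2.02 and -4.27) and Ctsg (-2.26 and -2.16) were also lower at both, and these 4 genes were named after their values were seen. Lcn2, an iron-siderophore binding protein, read 10.60 at Day7 and 5.94 at Day14, against 11.64 and 11.04 at Day0 and 10.46 and 10.02 at Day3 (-0.19, limma adjusted p = 0.56, and -4.85). The Day7 array lay within the newborn range and Day14 far below it. Camp, the cathelicidin (-0.41 and -4.58), and Ltf, lactoferrin (-0.32 and -4.37), followed this course. Chil3, a chitinase-like protein (-1.36 and -4.89), was called at both, although Day3 (9.09 and 8.45) stood well below Day0 (11.05 and 10.29) and only Day14 was called against Day3 alone. The cystatins Stfa3 (-0.46 and -5.07) and Stfa2l1 (-0.20 and -4.91) and the platelet chemokine Ppbp (-0.69 and -5.81) were among the 5 largest falls at Day14 alone. Ppbp was lower at both after quantile normalisation. The summed intensity of the 21 genes was 26250 at Day7 and 3065 at Day14, against 22110 to 49520 on the newborn arrays.

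Of the cell division genes in a class of lower genes, most were in that of Day14 alone, although many were also somewhat lower at Day7. Of 26 mitosis genes 5 were lower at both and 13 at Day14 alone, and of 29 DNA replication genes 2 and 13. Both late arrays lay below all newborn arrays in 17 of the 26 and 12 of the 29, against 15.8% of all genes. The median change of the mitosis list was -0.71 at Day7 and -1.97 at Day14, and that of the replication list -0.27 and -1.40. Mki67, the proliferation antigen, read 10.003 at Day7 and 7.19 at Day14, against 11.45 and 10.84 at Day0 and 11.60 and 10.98 at Day3 (-1.21 ± 0.26 and -4.03). Nusap1 (-0.73 and -3.39) of the spindle, cyclin B2, Ccnb2 (-0.81 and -2.73), and survivin, Birc5 (-0.75 and -2.71), were called at Day14 alone. In the replication list Cdc6 (-1.89 and -2.80), which loads the helicase, was lower at both, and Rrm2 (-0.49 and -2.90), Cdt1 (-0.08 and -2.77) and Mcm7 (-0.37 and -2.51) at Day14 alone. These lists are also active in blood precursors, whose genes fell on the same arrays, and the part of each cell type was not tested.

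Promoters of such genes often carry CCAAT boxes, bound by the factor NF-Y, and the cell cycle element TTTGAA. Both were searched on both strands in the 250 bases before the start of each gene in RefSeq's promoter table (GRCm38.p6). CCAAT was found in 18 of the 22 mitosis genes with an entry, against 37.5% of 27025 genes, and TTTGAA in 8 of 22 (36.4%), against 18.3%. The promoters of Mki67 (chr7:135716380-135716629, minus strand) and Ccnb2 (chr9:70421555-70421804, minus strand) are shown because Mki67 was called lower at both pools and Ccnb2 at Day14 alone. Each holds 3 CCAAT boxes, with TTTGAA 2 times in Mki67 and 1 time in Ccnb2. Capitals mark these motifs, on either strand, and none overlap.
Mki67: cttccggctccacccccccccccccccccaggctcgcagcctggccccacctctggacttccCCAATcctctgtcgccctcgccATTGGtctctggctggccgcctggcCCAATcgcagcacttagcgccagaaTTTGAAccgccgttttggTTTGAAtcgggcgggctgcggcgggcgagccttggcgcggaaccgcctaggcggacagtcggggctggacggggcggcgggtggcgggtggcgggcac
Ccnb2: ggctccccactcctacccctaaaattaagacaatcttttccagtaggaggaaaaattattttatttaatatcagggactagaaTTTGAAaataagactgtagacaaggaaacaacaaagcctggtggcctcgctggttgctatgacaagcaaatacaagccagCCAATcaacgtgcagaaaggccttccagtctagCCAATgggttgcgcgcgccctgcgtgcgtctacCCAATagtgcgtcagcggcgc
A match of letters is a description of the sequence and not a measured binding site.

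Of the fetal and imprinted growth genes in a class of lower genes, most were in that of Day14 alone. Of 22 measured 2 were lower at both, 7 at Day14 alone, 1 higher at both and 1 peaked at Day7, and 11 were in no class. Cd24a, a surface protein of progenitor cells (-0.95 and -4.61), the imprinted adaptor Grb10 (-0.48 and -2.87), the imprinted factor Plagl1 (-0.43 and -2.64) and the desaturase Scd2 (-0.31 and -2.66) were called at Day14 alone. Cd24a was lower at both against Day3 alone and after 2 of the other 3 scalings. Afp, alpha-fetoprotein, read 13.53 and 11.96, against 13.06 to 13.45 on the newborn arrays (0.27 and -1.29). Igf2, the fetal growth factor, read 13.39 and 12.42, against 12.32 to 13.23, and was in no class; it stood at 8.11 at Day21.

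Stress and immediate early genes were mixed. Of 23 genes of stress, amino acid sparing and glucocorticoid response 2 were lower at both, 2 lower at Day14 alone, 1 higher at both and 1 a trough, and 17 were in no class. Psat1 (-1.27 and -3.22) of serine synthesis and Asns (-1.40 and -2.80), which makes asparagine, both targets of the amino acid response, were lower at both, with Psat1 called at Day14 alone against Day3 alone. Rsad2, an interferon-induced antiviral enzyme, read 9.12 and 7.66, against 11.12 to 11.75 on the newborn arrays (-2.29 and -3.75). Myc (-1.35 and -1.68) and Gadd45b (-1.59 and -1.12), growth and stress response genes, were lower at both but not against Day3 alone, and Gadd45b lost its class under 2 of the 3 other scalings. On the other side Hsd11b1, which regenerates active glucocorticoid, gained 1.32 and 1.13 and lost its class after quantile normalisation and against Day3 alone.

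Hamp, hepcidin, the hormone that limits iron uptake, fell and partly recovered, and was 1 of 4 genes lower at both with Day14 called above Day7. It read 8.44 at Day7 and 11.55 at Day14, against 12.83 and 12.27 at Day0 and 12.83 and 12.28 at Day3. The change was -4.12 ± 0.25 at Day7 (17.3-fold lower) and -1.003 at Day14 (limma adjusted p = 0.00646), and Day14 lay 3.11 above Day7. With the arrays centred on their medians or set to equal housekeeping levels it counted as a trough at Day7. The Day7 level was close to those of E17.5 (8.60) and E18.5 (8.91), and at Day21 Hamp stood at 12.90.

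Cholesterol synthesis genes were among the Day7 peaks. Of 20 measured genes of cholesterol synthesis and LDL uptake 4 peaked at Day7, 2 were called higher at Day7 and lower at Day14, 3 were lower at Day14 alone, and 1 was higher at both. The median change was 0.73 at Day7 and -0.28 at Day14, and Day14 lay 1.33 below Day7 at the median. Cholesterol is built from acetyl-CoA through mevalonate, isoprenoids and squalene, and the genes of most steps are switched on together by SREBP-2 when sterol is scarce. Hmgcs1, at the start of the path, read 11.72 at Day7 and 9.48 at Day14, against 8.81 and 8.23 at Day0 and 11.37 and 10.80 at Day3. Idi1, which makes the isoprenoid building block, read 9.26 and 5.64, against 6.25 and 5.98 at Day0 and 8.70 and 8.21 at Day3 (1.97 ± 0.23 and -1.65). Day3 and Day7 were high and Day0 and Day14 low in both. Fdft1 (1.97 and -0.17), which makes squalene, Msmo1 (2.14 and -0.36), a demethylating oxidase, and Cyp51 (1.68 and -1.08), the lanosterol demethylase, shared this shape. Hmgcs1 and Fdft1 lie outside the naming rule and were chosen after their values were seen.

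Against Day3 alone the Day7 level of Hmgcs1 and Idi1 was not called and the Day14 fall was, so that the rise of these genes lay between Day0 and Day3. Fdft1 and Msmo1 were called higher at Day7 and lower at Day14 against Day3 alone. Fdps, which makes farnesyl diphosphate, read 9.30 and 6.03, against 8.29 to 8.88 on the newborn arrays (0.72 and -2.55), and Sqle, squalene epoxidase, 8.45 and 5.27, against 6.58 to 8.83 (0.74 and -2.45). Sc5d, a late desaturase, stayed up with 2.17 at Day7 and 1.49 at Day14, and was in no class against Day3 alone. At Day21 Idi1 (9.80), Fdps (9.61) and Msmo1 (10.02) were high again. After quantile normalisation 3 members of the list peaked, 3 were lower at Day14 alone and 2 opposite, and at equal housekeeping levels 5, 2 and 1.

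CCAAT was found before 16 of the 16 genes of this list with a promoter entry, against 37.5% of all genes, and the sterol element TCACNCCAC before 1 of 16, against 1.22%. The promoters of Hmgcs1 (chr13:119690101-119690350, plus strand), Idi1 (chr13:8885356-8885605, plus strand) and Cyp51 (chr5:4104698-4104947, minus strand) are printed because these genes moved together across the 4 stages. Capitals mark CCAAT (3, 2 and 1 times) and TCACNCCAC (1 time, in Hmgcs1) on either strand, without overlap. Entries without the sterol element hold no exact match of these letters in this window.
Hmgcs1: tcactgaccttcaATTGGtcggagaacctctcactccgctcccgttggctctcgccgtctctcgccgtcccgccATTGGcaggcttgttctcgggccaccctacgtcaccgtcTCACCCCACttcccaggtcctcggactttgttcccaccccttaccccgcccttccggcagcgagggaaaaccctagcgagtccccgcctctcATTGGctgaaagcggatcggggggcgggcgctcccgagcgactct
Idi1: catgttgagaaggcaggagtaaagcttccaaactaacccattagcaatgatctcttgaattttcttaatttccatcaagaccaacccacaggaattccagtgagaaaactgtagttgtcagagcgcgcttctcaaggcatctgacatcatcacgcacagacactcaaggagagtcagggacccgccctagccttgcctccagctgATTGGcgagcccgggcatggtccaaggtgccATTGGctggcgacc
Cyp51: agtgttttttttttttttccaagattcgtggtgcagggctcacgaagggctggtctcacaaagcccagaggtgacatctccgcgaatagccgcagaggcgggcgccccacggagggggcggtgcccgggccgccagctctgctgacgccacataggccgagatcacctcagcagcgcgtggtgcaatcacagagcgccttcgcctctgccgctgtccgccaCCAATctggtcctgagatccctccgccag

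**Figure D5:**
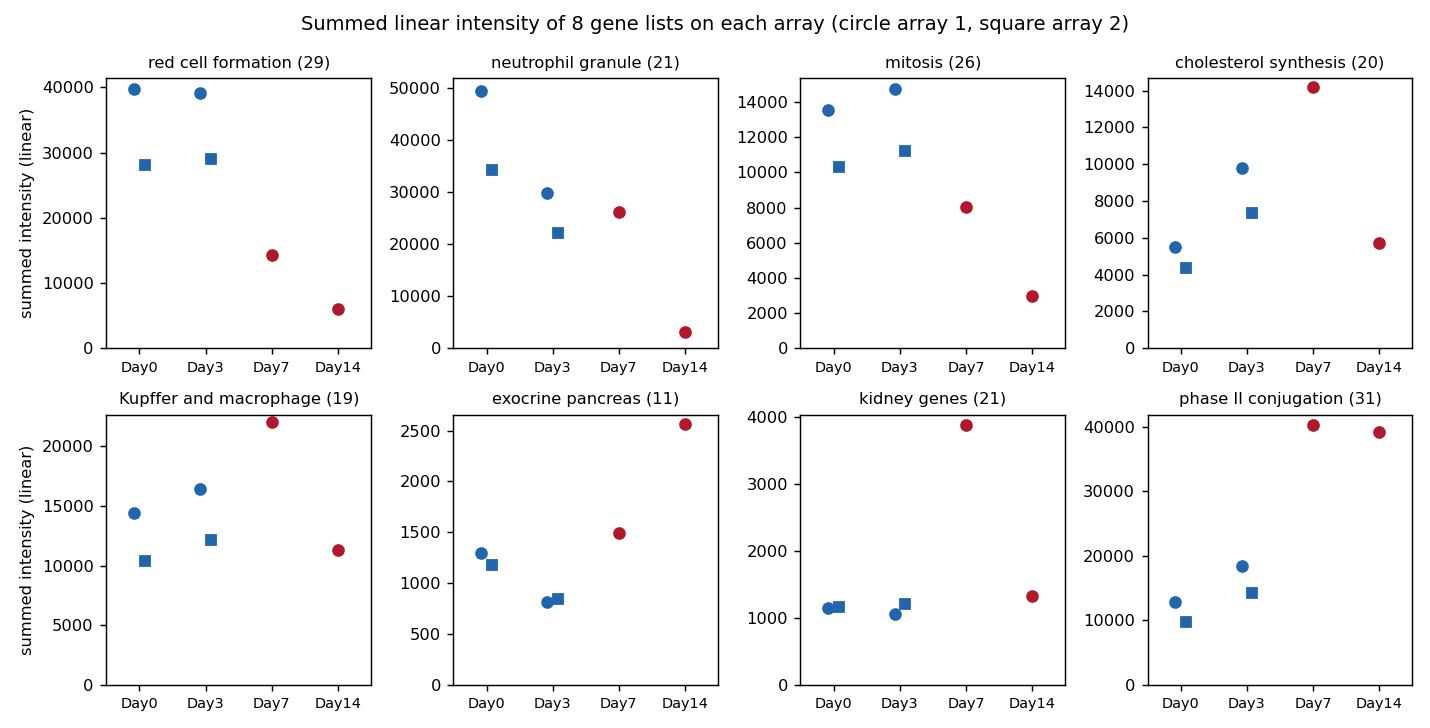
Summed linear intensity of 8 gene lists on each of the 6 arrays (circles array 1, squares array 2, newborn blue, Day7 and Day14 red), with the number of genes in brackets and axes from 0. Cholesterol synthesis reached 14170 at Day7 and 5718 at Day14, against 4338 to 9813 on the newborn arrays, and kidney genes stood out at Day7 alone.

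The 3 largest Day7 peaks were kidney genes. Umod, uromodulin of the kidney tubule, read 8.02 at Day7 and 4.46 at Day14, against 4.07 and 4.20 at Day0 and 4.005 and 4.24 at Day3 (3.90 ± 0.10, limma adjusted p = 4.704e-12). Kap, the kidney androgen-regulated protein, read 10.32 and 6.86, against 7.25 to 7.42. Cltrn, collectrin, read 7.81 and 4.35, against 5.78 and 5.205 at Day0 and 4.49 and 4.59 at Day3. Only the Day7 array was high in Umod and Kap. Cltrn was highest at Day7 but stood above its Day3 level at Day0 too, and against Day0 alone it was called higher at Day7 and lower at Day14. In all 8 of 21 kidney genes peaked at Day7, with Cdh16 (2.26 and 0.51), Fxyd2 (2.55 and 0.65) and Slc34a1 (6.41 at Day7 and 4.95 at Day14, against 4.92 to 4.998) of the tubule among them and named after their values were seen, and the count was 8 under each of the 3 other scalings. The list was drawn up from these data and its count supports nothing by itself. The share of kidney RNA in the other changes at Day7 was not tested. Gpx3 and Enpep, both abundant in kidney, were called higher at Day7 and lower at Day14. Gpx3, the secreted glutathione peroxidase, read 9.91 and 6.57, against 9.42 and 9.04 at Day0 and 6.87 and 6.64 at Day3, and was therefore high at Day0 too.

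A few macrophage and matrix genes peaked as well. In the Kupffer cell and macrophage list 3 of 19 peaked at Day7, 1 was higher at both and 2 were lower at Day14 alone. Marco, a scavenger receptor of macrophages, read 10.80 at Day7 and 7.78 at Day14, against 8.15 and 7.70 at Day0 and 9.81 and 9.18 at Day3 (2.09 ± 0.24 and -0.93), and was called higher at Day7 and lower at Day14 against Day3 alone. Timd4 (1.29 and 0.21), a receptor for dying cells, peaked, Vsig4 (1.91 and 1.08), a complement receptor, was higher at both, and lysozyme, Lyz2 (0.46 and -1.27), was lower at Day14 alone. The list's summed intensity was 22040 at Day7 and 11340 at Day14, against 10400 to 16440. Of 22 stellate and matrix genes 3 peaked, Igfbp3 (1.17 and 0.07, in no class against Day0 alone), Col1a2 (1.12 and -0.34) of type I collagen and Reln (1.002 and -0.09), and Dcn (1.20 and 1.12), decorin, was higher at both, though not against Day0 alone. After quantile normalisation none of these 3 peaks, nor Timd4 or Dcn, was in a class, and against Day3 alone Timd4, Vsig4 and Reln were in none. In the sinusoidal endothelium Clec4g, a lectin, rose (1.41 and 1.31), though not against Day3 alone, and Lyve1, a hyaluronan receptor, fell (-2.29 and -2.32), and 18 of 20 genes were in no class.

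The other members of the 8 largest peaks were Cyp1a1, Gsta2, Msmo1, Marco and Calml4. Cyp1a1, a cytochrome induced through the aryl hydrocarbon receptor, read 8.07 and 5.35, against 5.35 to 5.598, and Gsta2, a glutathione transferase, 7.77 and 5.37, against 4.83 to 5.31. Calml4, a calmodulin-like protein, read 9.09 and 7.06, against 4.75 and 4.71 at Day0 and 8.35 and 7.70 at Day3, and was higher at both against Day0 alone. Fads1 (2.30 and 0.74), a desaturase, and Prom1 (2.15 and 0.97), a progenitor surface protein, also counted as peaks. Both were higher at both against Day0 alone, Fads1 was in no class after quantile normalisation, and Prom1 was higher at both under each of the 3 other scalings. Of 10 bile duct genes, Prom1 and the adhesion protein Epcam, a trough at -1.31, were the only members of any class. Epcam turned to 0.67 at Day7 without cross-matching probe sets and was in no class after quantile normalisation or at equal housekeeping levels. Peaks as a class depended on the scaling: 43 of the 121 were peaks after quantile normalisation and 57 at equal housekeeping levels, and of the genes changed at Day7 only, peak or trough, 57.1% were peaks as deposited, 33.1% after quantile normalisation and 38.6% at equal housekeeping levels. In 76.0% of the 121, array 1 exceeded array 2 at both Day0 and Day3, against 45.6% of all genes.

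Troughs at Day7 mixed metabolic genes with ones that differed between repeat arrays. Cyp39a1, a cytochrome of bile acid synthesis, read 5.43 at Day7 and 8.76 at Day14, against 9.63 and 9.23 at Day0 and 8.56 and 8.18 at Day3 (-3.47 ± 0.27 and -0.14). Only the Day7 array was low. Lpin1, which makes diacylglycerol and is induced by fasting, read 6.57 and 9.31, against 11.19 and 10.62 at Day0 and 7.30 and 6.88 at Day3, so Day7 was close to Day3. Ppargc1a, a coactivator induced by fasting, read 5.56 and 7.30, against 7.75 and 7.95 at Day0 and 5.14 and 5.39 at Day3, and its Day7 change turned to 0.29 against Day3 alone, and it was in no class with arrays centred on their medians. Shh, a signalling protein, read 5.97 and 9.38, against 7.51 and 9.55 at Day0 and 7.47 and 9.502 at Day3, with array 1 about as far below array 2 at both stages. Plk2, a stress kinase, and Car7, a carbonic anhydrase, showed the same difference between arrays 1 and 2, with Plk2 at 6.03 and 7.69 and Car7 at 7.13 and 9.06 at Day0. Dmtf1, a transcription factor, read 4.07 at Day7 and 6.50 at Day14, against 6.20 to 6.78. Without cross-matching probe sets the Day7 change of Dmtf1 was 0.0444 and that of Car7 0.11, and neither was a trough. In 67.0% of the 91 troughs array 1 lay below array 2 at both newborn stages, against 30.3% of all genes. The class median was 5.68 at Day7 and 6.26 at E18.5, against 6.78 to 7.13 in the other 12 pools, and Day7, E18.5 and Day14 (7.05) had 1 array each. The part of the array in these troughs was not tested.

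Few genes were called higher at Day14 alone, and some of these were already somewhat higher at Day7. Cyp2c29, a cytochrome P450, read 7.29 at Day7 and 11.64 at Day14, against 6.33 and 6.81 at Day0 and 6.40 and 6.85 at Day3 (0.69 at Day7 and 5.04 ± 0.21 at Day14, 32.9-fold), and it remained at 11.94 at Day21. Slco1a4, an anion carrier (0.38 at Day7 and 2.65 at Day14), and Adh4, an alcohol dehydrogenase that acts on retinol (0.69 and 2.24), were next. Cyp2c55 (0.08 and 2.13) followed. In all 3 genes Day14 lay above all other arrays compared. Cela2a (2.24) and Cpb1 (2.02), enzymes of the exocrine pancreas, rose as well. Cela2a read 6.35 at Day7 and 8.06 at Day14, against 6.71 and 6.21 at Day0 and 5.06 and 5.28 at Day3. Pnliprp1, another, read 8.60 at Day7 and 9.13 at Day14, against 7.01 and 6.64 at Day0 and 5.84 and 5.99 at Day3. Reg1 gained 1.07 and 1.48. Of 11 pancreas genes 2 were called higher at Day7 and 7 at Day14, none lower, and 4 of the 11 were in a class, 2 at both and 2 at Day14 alone. The share of pancreas RNA in other changes was not tested.

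Other genes counted at Day14 alone stood out less. Oat (1.82), Arg1 (1.23), the last enzyme of the urea cycle, and Pck1 (1.53), the entry to gluconeogenesis, were high at Day0, low at Day3 and high again. Arg1 read 11.93 at Day7 and 12.95 at Day14, against 13.20 and 12.65 at Day0 and 10.73 and 10.26 at Day3, so that Day14 lay within the range of the Day0 arrays. Pck1 read 10.31 and 11.40, against 11.12 and 10.55 at Day0 and 9.12 and 8.66 at Day3. Against Day0 alone none of these 3 was in a class, and against Day3 alone all 3 were higher at both late pools, and Arg1 lost its class after quantile normalisation. Of the 26 genes of the class 8 had been called lower at Day3 than at Day0, and 23 lay above all newborn arrays. Polr2a, of the housekeeping list, was the only 1 of 15 in any class, at -0.99 at Day7 and 1.02 at Day14, with array 1 below array 2 at Day0 (7.88 and 8.77) and at Day3 (7.998 and 8.61).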

How the data were processed

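RNA was extracted with TRIZol, biotin labelled and hybridised, per the labels' protocols, and the intensities of 45101 probe sets were deposited after RMA, per the submitters' processing notes (whose version is not given in the sources used here). These values, from 12.59 to 25170, were linear, so their log2 was taken here without a pseudocount. Of the probe sets 34958 carried 1 gene symbol, 932 several and 9211 none, and the brightest set of each gene was kept, giving 18194 genes.

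Tests used limma 3.58.1 in R 4.3.3 with Benjamini-Hochberg adjustment over all 18194 genes. Calls needed an adjusted p under 0.05 and 1 log2 unit. One fit used 4 pool means (2 residual degrees of freedom, prior 1.635), the other all 25 arrays with a mean per stage (11, prior 3.93). In simulated data with 200 of 18194 genes altered, the array fit found 78% of 2-fold and 99% of 4-fold changes and 0 false ones. The pool fit found 0% of each. A change counted as found there by adjusted p and direction, without the cutoff of 1 log2 unit. The noise of each array was drawn independently, so deviations shared between arrays were not simulated. These shares are therefore not those of the calls reported here. The number of arrays limits the precision. Named were the genes with the largest changes in each class (8 for both pools and peaks, 6 for troughs and opposite calls, 5 for Day14 alone), the largest of each gene list and a fixed set of liver genes, with exceptions stated. The 8 for both pools, in each direction, were taken among genes whose 2 late arrays lay outside the range of the 4 newborn arrays. Lists and genes were chosen with earlier results of these data known. Alternatives covered scaling, probe sets, thresholds, baseline and arrays left out. Some genes of the lists were not analysed here. Promoters came from RefSeq's table.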

Additional observations from a re-analysis of the deposited data

Results flagged for a closer look

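In 8 genes the 2 late pools were called in opposite directions against the newborn mean, and each pool here is 1 array. Day14 and Day7 differed in the limma test of that difference as well. Opposite calls require the 2 pools to lie far apart, so that test adds no separate support. The cholesterol genes Idi1 (Day14 minus Day7 -3.62, adjusted p = 2.136e-06) and Cyp51 (-2.76, adjusted p = 2.027e-05) were high at Day7. So were Gpx3 (-3.34), the peptidase Enpep (-2.23), Paqr9 (-2.57), a membrane receptor, and the transcription factor Sox4 (-2.59). Il4i1, an amino acid oxidase, was low at Day7 and high at Day14 (2.84, adjusted p = 0.00193), as was the pregnancy-specific glycoprotein gene Psg21 (2.35, adjusted p = 0.00248).

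Idi1, Cyp51, Paqr9 and Enpep were Day7 peaks against Day0 alone and lower at Day14 alone against Day3 alone. Gpx3 was the reverse, and Psg21 was called in opposite directions against each stage. Under the 3 other scalings Idi1 and Gpx3 were called in opposite directions each time. Il4i1 and Paqr9 were so called under 2 of the 3, Cyp51, Sox4 and Psg21 under 1, and Enpep under 0. Enpep and Psg21, beyond the 6 that the naming rule takes, were named after their values were seen. Enpep read 9.10 at Day7 and 6.87 at Day14, against 7.28 and 6.81 at Day0 and 8.95 and 8.62 at Day3. Il4i1 read 5.43 and 8.27, against 6.31 and 6.89 at Day0 and 6.07 and 7.11 at Day3, and Psg21 7.16 and 9.51, against 8.16 and 8.74 at Day0 and 7.84 and 8.68 at Day3, with array 1 below array 2 at both newborn stages in both genes. The part of the array in these differences was not tested.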

How the results depend on the processing

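Every call per pool rests on 1 late array. Quantile normalisation left 52 Day7 peaks and gave 45 higher and 229 lower genes at Day14 alone. Equal housekeeping levels gave 880 calls between pools (limma adjusted p down to 1.82e-07, prior degrees of freedom 12.61), 59 peaks and 188 lower at Day14 alone. Averaging probe sets gave 221 lower at both, 34 troughs and 201 lower at Day14 alone. A change of 1.5 log2 units left 139 higher and 123 lower at both, 26 peaks, 23 troughs, and 8 higher and 134 lower at Day14 alone. Day3 alone as baseline gave 72 peaks, and Day0 alone 473 higher at both. A fit on the 6 arrays gave 220 lower at both and 0 peaks, 0 troughs, and 0 higher and 0 lower at Day14 alone; with fewer arrays its spread rests on 2 residual degrees of freedom. The replicate block gave 1282 late calls on arrays against 1188 for all 25 arrays without it, and left every class count within 1.5 times. Differences between arrays 1 and 2 correlated over genes at a median of 0.398 between stages (-0.573 to 0.730, over 0.1 in 38 of 55 stage pairs, 0.730 between Day0 and Day3), so arrays shared part of their deviation with their number, but not in every pair. Chosen after seeing the data, newborn arrays numbered 1 alone gave 523 lower at both, 57 troughs and 46 higher at Day14 alone, and single late pools gave 819 higher and 565 lower (Day7) and 1220 lower (Day14).

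Leaving out 1 newborn array gave 273 to 347 higher and 282 to 439 lower at both, 105 to 141 peaks, 77 to 127 troughs, 26 to 35 higher and 348 to 413 lower at Day14 alone, and 0 to 0 pool calls. Of 2666 gene values under the alternatives 2498 kept direction and call, 156 lost the call, 2 gained it and 10 changed sign. These 10 were, at Day14, Apoa1 with quantile normalisation (-0.0659), Xist and Apob with averaged probe sets (-0.16 and 0.0895), Xist without cross-matching probe sets (-0.52), Bdh1 against Day3 alone (-0.0794) and Apob against Day0 alone (0.0336), and, at Day7, Dmtf1, Car7 and Epcam without those probe sets (0.0444, 0.11 and 0.67) and Ppargc1a against Day3 alone (0.29). Except for the sets left out, the cause was not tested.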
